A study of Saccharomyces cerevisiae with 12 samples.

Results

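The 49 genes described here act in meiosis and sporulation of budding yeast and were measured in *S. cerevisiae* JN54 cells growing vegetatively and exposed to mild heat shock. They were chosen by name: the probes whose annotation gives 1 of 49 listed symbols, taken as 5 regulators, 22 genes of recombination and synapsis, and 22 genes of the spore membrane and spore wall. All 49 were found, each with 1 probe and a value in all 6 arrays, out of 6019 features that were measured. JN54 is a wild-type *MATa* strain with auxotrophic markers (*his3*, *leu2*, *ura3*, *trp1* and *lys2*), carried by heat-shocked and control cells alike, and a single strain was used. Heat-shocked cells were moved from log phase in the rich medium YPD at 30°C to pre-warmed YPD of 43°C, where they stayed 30 or 60 min, and control cells were kept at 30°C for the same time. Each array compared messenger RNA of heat-shocked cells in Cy5 with that of control cells in Cy3, and there were 3 experiments at each time. All values below are log2 ratios of heat-shocked over control cells, so that 1 stands for a 2-fold higher and -1 for a 2-fold lower amount in heat-shocked cells.

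In budding yeast, meiosis and sporulation are a programme of diploid cells that carry both mating types and are starved of nitrogen and of a fermentable carbon source. The transcription activator Ime1 switches on the early genes, among them those for the programmed breakage of DNA, the pairing of homologous chromosomes and the synaptonemal complex, and the kinase Ime2 acts beside it. Ndt80 then switches on the middle genes, many of which build the prospore membrane that encloses each nucleus and the layered wall of the spore. In growing cells these genes are held down by repressors at their promoters, including Ume6 with Sin3 and Rpd3 at early genes and Sum1 with Hst1 at middle genes, and most of their transcripts are scarce.

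The 6 arrays had median log2 ratios between -0.025 and 0.023 over all measured probes. The median absolute deviation, scaled to match an SD, was between 0.57 and 1.05, and experiment 3 had the lowest value and the most tied values at each time (2674 probes with a value shared by another probe at 30 min and 2196 at 60 min, against 363 to 974 in the other arrays). A ratio gives no level, so neither the amount of a transcript nor the presence of a cell type can be read from it, and in such bulk samples fewer cells that make a transcript and less of it per cell cannot be told apart. No dye swap is described, so that a dye effect of a spot and the heat shock cannot be told apart. The experiments are called independent, but nothing states that they came from separate cultures, and the p-values then measure only the spread between these arrays. The heat-shock genes *HSP12*, *SSA4*, *HSP26* and *HSP104* were above 0 in all 6 arrays, with means between 1.57 and 4.36 at 30 min and between 1.50 and 4.76 at 60 min, as the labelled direction has it.

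Of the 49 genes, 14 had risen after 30 min and 22 after 60 min, and 0 had fallen at either time (limma, Benjamini-Hochberg adjusted p under 0.05 over all features). These are 28.6% and 44.9% of the genes, beside 10.7% and 15.6% of all features that rose, while 15.9% of all features fell at 30 min and 18.2% at 60 min. At both times 12 genes rose (7.63% of all features did), 2 rose at 30 min alone (3.12% of all features), 10 rose at 60 min alone (8.01%), and 25 passed at neither time (51%, near the 58.6% of all features). The changes were small. The 49 means had a median of 0.54 at 30 min and 0.59 at 60 min, against -0.01 and 0.01 for all features, and ranged between -0.72 and 1.20 at 30 min and between -0.60 and 1.29 at 60 min. Over 2-fold in at least 2 of 3 experiments were 3 genes at 30 min (4.42% of all features) and 11 at 60 min (6.89%), and 0 of the genes were over 2-fold lower by the same rule (10.2% and 10.5% of all features). The ratio was above 0 in all 3 arrays for 35 genes at 30 min (71.4%, against 34% of all features) and for 29 genes at 60 min (59.2%, against 27.7%). At 30 min the count of 14 became 3, 2 and 7 without experiment 1, 2 or 3 of that time, and at 60 min the count of 22 became 12 without experiment 2 of that time. In all 6 fits that left out an array, *SPO1* and *GAS4* kept their call at 30 min, and *REC102*, *REC8*, *DMC1*, *SAE3*, *ZIP1*, *SPO1*, *SPR1*, *DIT1*, *DIT2* and *GAS4* kept theirs at 60 min. Every other call at 30 min was lost in at least 2 of the 3 fits without an array of that time. Those of *SPO11*, *REC8*, *DMC1*, *SAE3*, *MSH4* and *SPR3* were lost in all 3. Without experiment 2 of 60 min 11 of the 22 calls at 60 min were lost, those of *MND1*, *MSH4*, *SPO21*, *SPO73*, *SPS1* and *OSW2* in that fit only. Which time had more rising genes depended on the fit, since 28 rose at 30 min and 15 at 60 min with each time fitted alone, and 32 and 13 with array weights.

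The 3 classes differed in how many of their genes passed, without a test between the classes. Of the 5 regulators 0 rose at either time. Among the 22 recombination and synapsis genes 8 passed upwards at 30 min (36.4%) and 9 at 60 min (40.9%). Among the 22 spore membrane and wall genes 6 did at 30 min (27.3%) and 13 at 60 min (59.1%). Over all features 10.7% rose at 30 min and 15.6% at 60 min. With only 5 regulators, 0 calls cannot be told apart from these shares. The median of the class means was 0.07 at 30 min and 0.29 at 60 min for the regulators, 0.56 and 0.43 for recombination and synapsis, and 0.56 and 0.73 for spore membrane and wall. The 0.43 of recombination and synapsis at 60 min was 0.26 without experiment 2 of that time and 0.25 after removal of the trend with the size of the numbers behind each ratio, which is described with those numbers. In single arrays, the medians of recombination and synapsis genes were 0.71, 0.66 and 0.40 in experiments 1, 2 and 3 at 30 min and 0.28, 0.88 and 0.43 at 60 min, and those of spore membrane and wall genes were 0.81, 0.58 and 0.48 at 30 min and 0.84, 1.21 and 0.41 at 60 min. The medians of the regulators were -0.34, -0.01 and 0.29 at 30 min and 0.20, -0.21 and 0.08 at 60 min, on either side of 0 at both times.

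**Figure D1:**
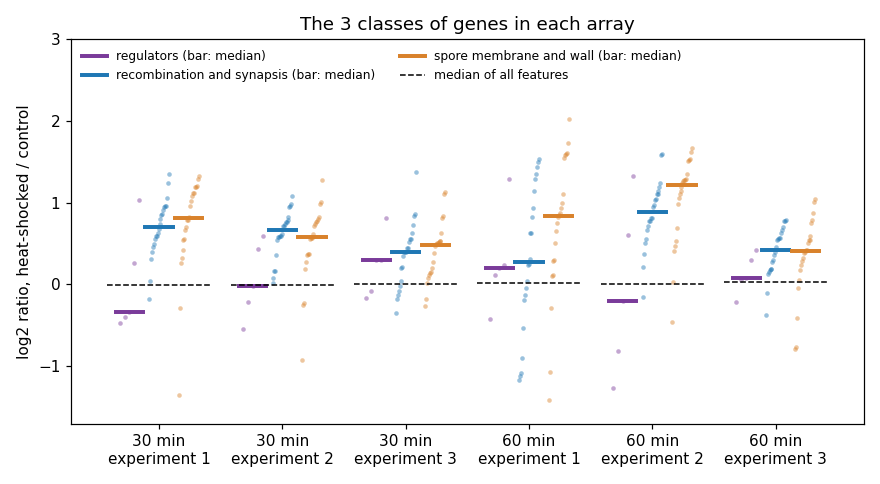
Log2 ratio, heat-shocked over control (vertical axis), of each gene (points) in each of the 6 arrays (horizontal axis), with the class median as a coloured bar and the median of all 6019 features as a dashed line. The bars of recombination and synapsis and of spore membrane and wall lie above the dashed line in every array, at 0.28 to 1.21, while those of the 5 regulators lie between -0.34 and 0.29.

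None of the 5 regulators passed the test at either time, and all 3 arrays of a time were above 0 only for *AMA1* at 30 min and *IME1* at 60 min. *IME1* (YJR094C), the activator that starts the programme, had log2 ratios of -0.39, -0.22 and 0.82 in experiments 1, 2 and 3 at 30 min and 0.20, 0.60 and 0.08 at 60 min. Its arrays were split around 0 at 30 min and all slightly above 0 at 60 min, with means of 0.07 ± 0.65 and 0.29 ± 0.27 (SD, n = 3 each, adjusted p = 0.864 and 0.402 by limma). *IME2* (YJL106W), the kinase of meiotic entry, had ratios of 0.26, 0.43 and -0.08 at 30 min and 1.29, -0.82 and 0.41 at 60 min. The last 3 span more than 4-fold between arrays of the same time, and the means were 0.20 ± 0.26 and 0.30 ± 1.06 (SD, n = 3 each, adjusted p = 0.667 and 0.518 by limma). *NDT80* (YHR124W), the activator of the middle genes, had ratios of -0.47, -0.01 and -0.17 at 30 min and 0.11, -0.21 and -0.22 at 60 min. It was the regulator with the least spread, at or a little below 0 in 5 of 6 arrays, with means of -0.22 ± 0.23 and -0.10 ± 0.19 (SD, n = 3 each, adjusted p = 0.446 and 0.719 by limma).

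The other two regulators act at the meiotic divisions. *AMA1* (YGR225W), a meiosis-specific activator of the anaphase-promoting complex, had ratios of 1.04, 0.59 and 0.29 at 30 min and -0.42, 1.33 and 0.30 at 60 min. It was above 0 in all 3 arrays at 30 min but not at 60 min, and its means of 0.64 ± 0.37 and 0.40 ± 0.88 did not pass (SD, n = 3 each, adjusted p = 0.138 and 0.327 by limma). *SPO13* (YHR014W), which is needed for sister chromatids to stay together in the first division, had ratios of -0.34, -0.54 and 0.30 at 30 min and 0.24, -1.27 and 0.06 at 60 min. Its arrays lay on both sides of 0 at each time, with means of -0.19 ± 0.44 and -0.32 ± 0.82 (SD, n = 3 each, adjusted p = 0.651 and 0.428 by limma).

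Among the 7 genes for the making of DNA double-strand breaks, 2 rose at 30 min and 1 at 60 min. These are 28.6% and 14.3%, beside 10.7% and 15.6% of all features, so that the count at 60 min is near that share. *SPO11* (YHL022C), whose product cuts the DNA, had ratios of 0.67, 0.61 and 0.52 at 30 min and 0.23, 0.66 and 0.19 at 60 min. The 6 arrays were all above 0 and none reached 2-fold, with a rise of 0.60 ± 0.08 at 30 min (SD, n = 3, adjusted p = 0.0478) and 0.36 ± 0.26 at 60 min (adjusted p = 0.185), and the rise at 30 min no longer passed without any of the 3 arrays of that time. *REC102* (YLR329W), a partner of Spo11, had ratios of 1.25, 1.08 and 0.21 at 30 min and 1.54, 1.03 and 0.71 at 60 min. Experiments 1 and 2 were over 2-fold at both times and experiment 3 was the lowest at both, and the gene rose by 0.85 ± 0.55 and by 1.09 ± 0.42 (SD, n = 3 each, adjusted p = 0.0327 and 0.00883). *MEI4*, *REC104*, *REC107* and *REC114*, whose products are needed for the breaks too, and *MER1*, which activates splicing of meiotic transcripts, had means between -0.10 and 0.56 at 30 min and between -0.16 and 0.58 at 60 min and did not pass.

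Of the 4 genes for the chromosome axis and cohesion, 1 rose at 30 min and 2 at 60 min (25% and 50%, beside 10.7% and 15.6% of all features). *REC8* (YPR007C), the cohesin subunit of meiotic chromosomes, had ratios of 0.84, 0.95 and 0.56 at 30 min and 1.43, 1.58 and 0.78 at 60 min. Experiments 1 and 2 at 60 min were above all arrays of 30 min, and it rose by 0.78 ± 0.20 and by 1.26 ± 0.43 (SD, n = 3 each, adjusted p = 0.0251 and 0.00189). *MEK1* (YOR351C), a kinase that acts with the axis in the choice of the homologue as repair partner, had ratios of 0.91, 0.74 and -0.18 at 30 min and 1.49, 0.97 and 0.45 at 60 min. It rose at 60 min by 0.97 ± 0.52 (SD, n = 3, adjusted p = 0.0192), a call that was lost without experiment 1 or experiment 2 of that time, and the 30 min mean was 0.49 ± 0.59 (adjusted p = 0.201). The axis proteins themselves had means of 0.39 and 0.36 (*HOP1*) and of 0.15 and 0.39 (*RED1*) at 30 and 60 min and did not pass.

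Of the 5 genes for strand exchange between homologues, 3 rose at both times (60%, beside 7.63% of all features). *DMC1* (YER179W), the meiotic recombinase related to RecA, had ratios of 0.96, 0.76 and 0.72 at 30 min and 1.35, 1.05 and 0.40 at 60 min. All 6 arrays were above 0 and the spread was wider at 60 min, with rises of 0.81 ± 0.13 and 0.93 ± 0.49 (SD, n = 3 each, adjusted p = 0.0231 and 0.0103). *SAE3* (YHR079C-A), which helps to load Dmc1, had ratios of 0.80, 0.76 and 0.40 at 30 min and 0.93, 1.19 and 0.55 at 60 min. It rose by 0.65 ± 0.22 and by 0.89 ± 0.32 (SD, n = 3 each, adjusted p = 0.0438 and 0.00942). *MND1* (YGL183C), which acts in strand invasion with Hop2, had ratios of 1.35, 0.96 and 0.45 at 30 min and 0.63, 1.60 and 0.78 at 60 min. The array with the highest ratio was experiment 1 at 30 min and experiment 2 at 60 min, and the rises were 0.92 ± 0.45 and 1.00 ± 0.52 (SD, n = 3 each, adjusted p = 0.023 and 0.0128). The partners *MEI5* (of Sae3) and *HOP2* (of Mnd1) did not pass, with means of 0.56 and 0.52 at 30 min and of 0.11 and -0.02 at 60 min. In both, the lowest of the 6 arrays was experiment 1 at 60 min, at -0.90 for *MEI5* and -1.16 for *HOP2*.

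Of the 6 genes for synapsis and crossovers, 2 rose at 30 min and 3 at 60 min (33.3% and 50%, beside 10.7% and 15.6% of all features). *ZIP1* (YDR285W), the transverse filament protein of the synaptonemal complex, had ratios of 0.50, 0.82 and 0.44 at 30 min and 1.28, 1.11 and 0.79 at 60 min. It was above 0 in all 6 arrays, just short of passing at 30 min (0.59 ± 0.20, SD, n = 3, adjusted p = 0.0562), and it rose at 60 min by 1.06 ± 0.25 (adjusted p = 0.00333). *ZIP2* (YGL249W), a protein of the sites where synapsis starts, had ratios of 0.31, 0.98 and 1.37 at 30 min and 0.82, 0.55 and 0.67 at 60 min. It was the only called recombination gene whose highest ratio at 30 min was in experiment 3, and it rose by 0.89 ± 0.54 and by 0.68 ± 0.13 (SD, n = 3 each, adjusted p = 0.0188 and 0.0447), the second of which was lost in 5 of the 6 fits that left out an array. Its locus overlaps the gene *RME3* in the RefSeq annotation, and with no strand given for the probe the transcripts cannot be told apart. *MSH4* (YFL003C), a MutS homologue that promotes crossovers, had ratios of 0.95, 0.78 and 0.87 at 30 min and 0.62, 1.14 and 0.57 at 60 min. It rose by 0.87 ± 0.09 and by 0.78 ± 0.32 (SD, n = 3 each, adjusted p = 0.0115 and 0.0152), whereas *MSH5*, the gene of its partner, averaged 0.26 and 0.43 at 30 and 60 min and did not pass.

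The synapsis initiation genes *SPO22* (also known as *ZIP4*) and *SPO16* were nearer to passing at 30 min, at 0.71 (adjusted p = 0.0583) and 0.54 (adjusted p = 0.138), than at 60 min, at 0.43 and -0.43 (adjusted p = 0.214 and 0.215). *SPO16* lay at 0.39 to 0.62 in the arrays of 30 min and at -1.12 to 0.21 in those of 60 min. It was the only one of the 49 genes whose difference between the times had an unadjusted p under 0.05 (-0.96 for 60 minus 30 min, unadjusted p = 0.0216 in the limma fit), and with the adjustment over all features it did not pass.

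Of the 12 genes for the spindle plaque, prospore membrane and septins, 3 rose at 30 min and 6 at 60 min, and the gene with the highest mean of the 49 was among them. These are 25% and 50%, beside 10.7% and 15.6% of all features. *SPO1* (YNL012W), a phospholipase B homologue needed at the meiotic spindle pole body, had ratios of 1.20, 1.28 and 1.13 at 30 min and 1.59, 1.27 and 1.00 at 60 min. Its 6 arrays were all over 2-fold, with rises of 1.20 ± 0.08 (2.3-fold) and 1.29 ± 0.29 (2.44-fold) (SD, n = 3 each, adjusted p = 0.00206 and 0.00095). *SPO21* (YOL091W), a component of the meiotic outer plaque from which the prospore membrane grows, had ratios of 1.32, 0.76 and 0.51 at 30 min and 0.87, 1.53 and 0.54 at 60 min. It rose by 0.86 ± 0.42 and by 0.98 ± 0.50 (SD, n = 3 each, adjusted p = 0.0268 and 0.0127). *SPO74* (YGL170C), also of the outer plaque, had ratios of 1.11, -0.26 and 0.16 at 30 min and 2.02, 1.53 and 0.29 at 60 min. Its 2.02 was the highest single ratio of any of the 49 genes, and the rise at 60 min of 1.28 ± 0.89 (SD, n = 3, adjusted p = 0.0155) was lost without experiment 1 or experiment 2 of that time, while the 30 min mean was 0.34 ± 0.70 (adjusted p = 0.477).

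*SPO73* (YER046W), needed for the prospore membrane to extend, had ratios of 0.42, 0.62 and 0.49 at 30 min and 0.65, 1.11 and 0.59 at 60 min. It rose at 60 min by 0.78 ± 0.28 (SD, n = 3, adjusted p = 0.014). *SPO75* (YLL005C), another gene needed to form spores, had ratios of 0.79, 0.19 and 0.50 at 30 min and 0.75, 0.69 and 0.79 at 60 min. The 60 min arrays were close together, with a rise of 0.74 ± 0.05 (SD, n = 3, adjusted p = 0.0174) that was lost without experiment 3 of that time. *SPS1* (YDR523C), a protein kinase of prospore membrane closure, had ratios of 1.02, 0.37 and 0.51 at 30 min and 1.72, 1.62 and 0.33 at 60 min. Experiment 3 stood below the other two at 60 min, and the rise there was 1.22 ± 0.78 (SD, n = 3, adjusted p = 0.00833). At 30 min these 3 genes averaged 0.51, 0.49 and 0.64 and did not pass (adjusted p = 0.085, 0.0948 and 0.119).

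Both sporulation septins on the list were measured. *SPR3* (YGR059W) had ratios of 0.55, 0.57 and 0.82 at 30 min and -0.29, 0.53 and 0.06 at 60 min. It rose at 30 min only, by 0.65 ± 0.15 (SD, n = 3, adjusted p = 0.0495, lost without any of the 3 arrays of that time), with 0.10 ± 0.41 at 60 min (adjusted p = 0.752), and the difference between the times did not pass. *SPR28* (YDR218C) had ratios of 1.19, 0.82 and 0.08 at 30 min and 1.58, 1.35 and -0.77 at 60 min. It was over 2-fold in experiments 1 and 2 at 60 min and below 0 in experiment 3, and did not pass at either time (0.70 ± 0.57 and 0.72 ± 1.29, SD, n = 3 each, adjusted p = 0.213 and 0.185). *SPO19*, *SPO20* and *SSP1*, of the prospore membrane, did not pass either, at 0.40 to 0.53 at 30 min and 0.51 to 0.65 at 60 min.

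*SPO77*, needed for closure of the prospore membrane and for the wall, had the lowest mean of the 49 genes at both times. Its ratios were -1.35, -0.92 and 0.12 at 30 min and -1.41, 0.03 and -0.41 at 60 min. The means of -0.72 ± 0.75 and -0.60 ± 0.74 did not pass (SD, n = 3 each, adjusted p = 0.121 and 0.176 by limma), and the arrays lay on both sides of 0 at each time.

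The 10 spore wall genes gave 3 calls upwards at 30 min (30%) and 7 at 60 min (70%). Over all features the shares were 10.7% and 15.6%. *GAS4* (YOL132W), a glucan remodelling enzyme of the wall, had ratios of 1.28, 1.01 and 1.10 at 30 min and 0.83, 1.66 and 1.05 at 60 min. It rose 2.19-fold at 30 min (1.13 ± 0.14) and 2.26-fold at 60 min (1.18 ± 0.43; SD, n = 3 each, adjusted p = 0.00431 and 0.00271), and with *REC102* and *SPO1* it made up the 3 genes over 2-fold in at least 2 experiments at both times. *SPR1* (YOR190W), a sporulation-specific glucanase, had ratios of 0.96, 0.98 and 0.84 at 30 min and 1.00, 0.98 and 0.88 at 60 min. These 6 values were closer together than those of any other gene given here, with rises of 0.93 ± 0.08 and 0.95 ± 0.07 (SD, n = 3 each, adjusted p = 0.00581 and 0.00394).

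The dityrosine layer is the outermost coat of the spore, and its precursor is made by the enzymes Dit1 and Dit2, whose genes are neighbours on the chromosome. *DIT1* (YDR403W) had ratios of 0.70, 0.56 and 0.01 at 30 min and 1.54, 1.27 and 0.40 at 60 min. It rose at 60 min by 1.07 ± 0.59 (SD, n = 3, adjusted p = 0.00975) and stood at 0.43 ± 0.36 at 30 min (adjusted p = 0.237). *DIT2* (YDR402C) had ratios of 1.20, 0.80 and 0.39 at 30 min and 1.11, 1.51 and 0.74 at 60 min. It rose at both times, by 0.80 ± 0.41 and by 1.12 ± 0.38 (SD, n = 3 each, adjusted p = 0.0293 and 0.00503).

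*OSW2* (YLR054C), of the outer spore wall, had ratios of 0.79, 0.74 and 0.27 at 30 min and 0.85, 1.28 and 0.42 at 60 min. It rose at 60 min by 0.85 ± 0.43 (SD, n = 3, adjusted p = 0.0162). *SPS2* (YDR522C), a wall protein whose gene lies next to *SPS1*, had ratios of 0.54, 0.72 and 0.53 at 30 min and 0.93, 1.06 and 0.17 at 60 min. *SPS4* (YOR313C), a gene induced in sporulation, had ratios of 0.32, 0.57 and 0.63 at 30 min and 0.29, 1.19 and 0.51 at 60 min. Both rose at 60 min, by 0.72 ± 0.48 and by 0.66 ± 0.47 (SD, n = 3 each, adjusted p = 0.0312 and 0.0429), and both calls were lost in 5 of the 6 fits that left out an array. At 30 min these 3 genes averaged 0.60, 0.60 and 0.51 (adjusted p = 0.0744, 0.0722 and 0.118). The remaining wall genes, the kinase gene *SMK1*, *CRR1* and *OSW1*, had means of 0.18, -0.08 and 0.73 at 30 min and of -0.14, 0.24 and 0.28 at 60 min and did not pass.

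**Figure D2:**
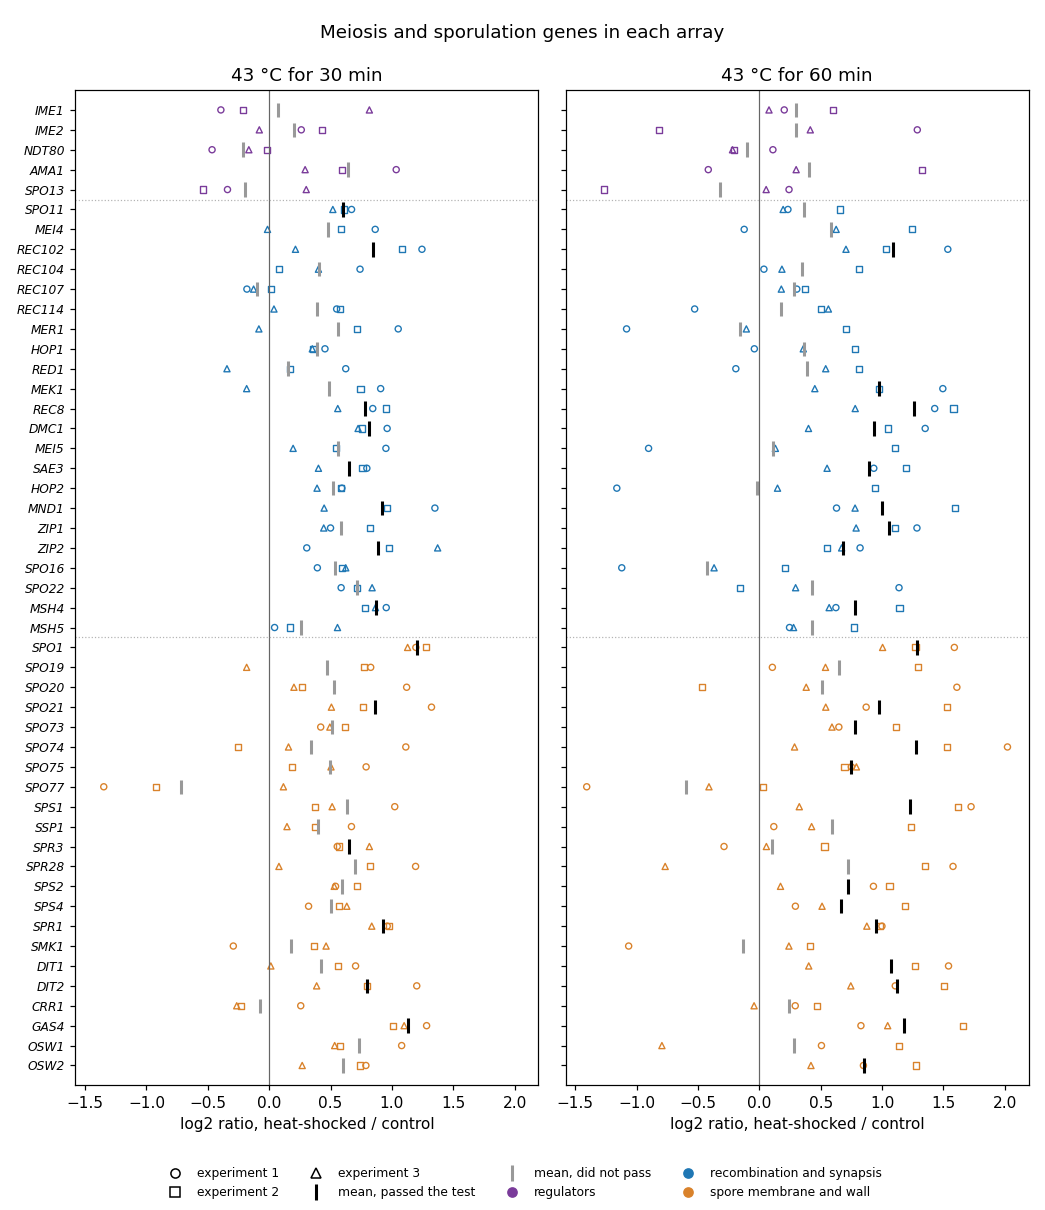
Log2 ratio, heat-shocked over control (horizontal axis), of the 49 genes (rows, coloured by class) in experiments 1, 2 and 3 at 30 min (left) and 60 min (right), with the mean as a bar, black where it passed the test and grey where it did not. No regulator has a black bar, 14 genes have one at 30 min and 22 at 60 min, and all of them lie to the right of 0.

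The direct comparison of the times asked whether the genes went on changing between 30 and 60 min. The ratio was higher at 60 min than at 30 min for 32 of the 49 genes and lower for 17, and 0 of the 49 differences passed the test (lowest adjusted p = 0.532 by limma). Over all features 0 passed too, and 516 (8.57%) had an unadjusted p under 0.05, against 1 of the 49 genes. Higher at 60 min were 18 of the 22 spore membrane and wall genes, 11 of the 22 recombination and synapsis genes (50%) and 3 of the 5 regulators, where 52.1% of all features were higher at 60 min. The median SD of the 49 genes was 0.30 at 30 min and 0.49 at 60 min, and the genes differed in which array was low. A rise that passed at 60 min and not at 30 min, as for *SPO74* or *DIT1*, is therefore not shown to differ between the times.

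**Figure D3:**
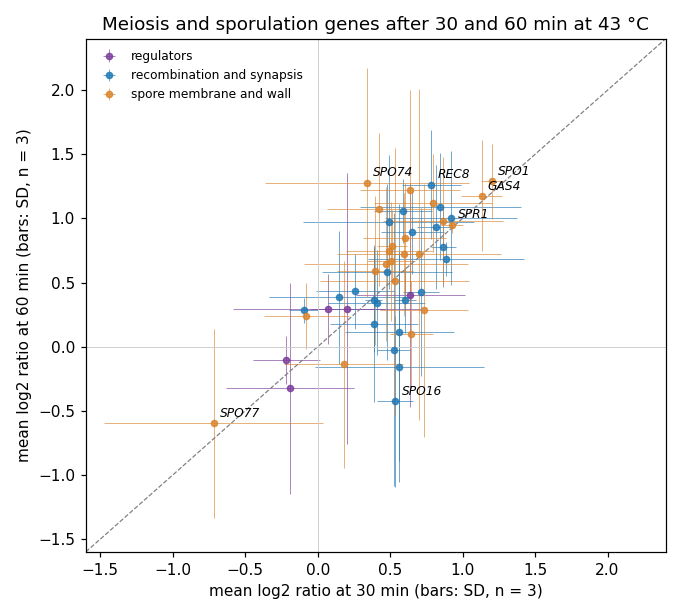
Mean log2 ratio at 60 min (vertical axis) against that at 30 min (horizontal axis) for each of the 49 genes, coloured by class, with bars for the SD of 3 arrays and a dashed line where the times are equal. *SPO1* and *GAS4* lie at the upper right, *SPO77* at the lower left, *SPO16* and *SPO74* farthest from the line, and 32 of the 49 genes lie above it.

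The values also allow the spots to be ordered by the numbers behind their ratios. Within an array, between 79.7% and 99.7% of the deposited ratios equal, within a relative tolerance of 1.5e-09, the ratio of 2 whole numbers below 2000 times 1 constant, whereas at most 0.292% do after a small shift of all values. The whole numbers are read in lowest terms, so they are lower limits and order the spots only roughly. All 49 genes had such ratios in all 6 arrays, with a median of the larger number of 114.5 (42 to 671 between genes), against 264.75 for all probes. In experiment 3 at 30 min, for example, *IME1* had the ratio 2:1 and *MEK1* the ratio 1:1 in lowest terms. Ranked by the size of these numbers over all features, the 49 genes had a median percentile of 17.7 (3.44 to 75.7), with 30 of them in the lowest 20% and 43 below the median.

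The ratio depended on that size across all features. Apart from the 49 genes, features in the lowest 20% had median log2 ratios of 0.39 at 30 min and 0.33 at 60 min, and 13.8% and 21.2% of them rose. Those in the highest 20% had medians of -0.57 and -0.62, and 6.73% and 7.89% of them rose. With this trend removed from each array, an alternative added after the data were seen, the median of the 49 genes was 0.26 at 30 min and 0.32 at 60 min. Then 8 of the 49 genes rose at 30 min (16.3%, against 12.5% of all features) and 19 at 60 min (38.8%, against 16%), of which 6 and 18 had risen without the removal. *SPO1*, *GAS4*, *SPR1*, *MND1*, *ZIP2* and *MSH4* rose at both times in either case, *SPO77* was called as fallen at 30 min, and 0 regulators rose.

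**Figure D4:**
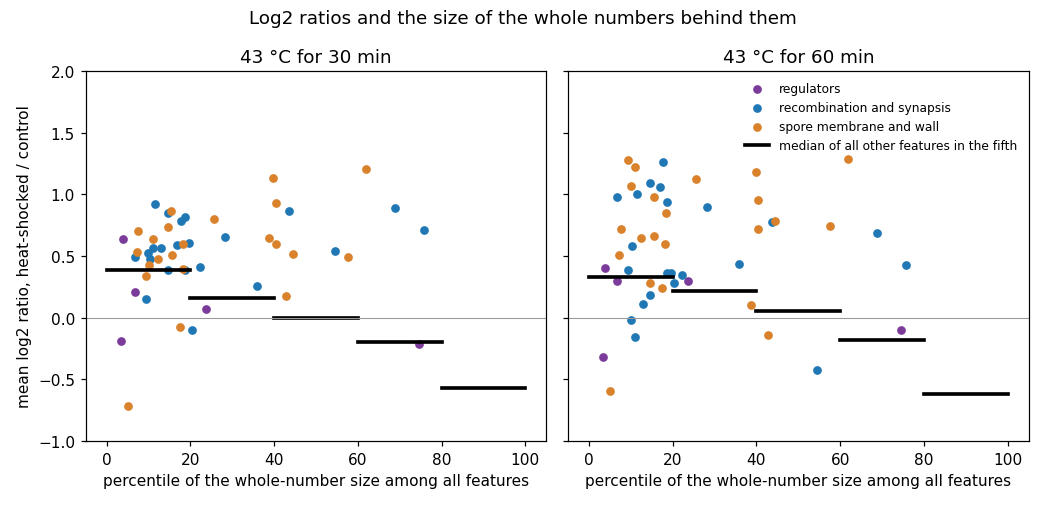
Mean log2 ratio, heat-shocked over control (vertical axis), of the 49 genes (points, coloured by class) against the percentile of their whole-number size among all features (horizontal axis), at 30 min (left) and 60 min (right), with a black line for the median of the other features in each of 5 equal parts. The black lines step down between the lowest 20% (0.39 and 0.33) and the highest 20% (-0.57 and -0.62), and 30 of 49 points stand in the lowest 20%.

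A list of other genes of meiosis and sporulation, set beside the 49 genes, had 29 of 30 members measured. Of these 8 rose and 1 fell at 30 min, and 10 rose and 1 fell at 60 min, with medians of 0.43 and 0.45. These are 27.6% and 34.5% that rose, beside 10.7% and 15.6% of all features, and 3.45% that fell at each time, beside 15.9% and 18.2%. Their median percentile of the whole-number size was 30.2. *SGA1*, the glucoamylase of sporulating cells, had ratios of 1.21, 0.98 and 0.85 at 30 min and 0.92, 1.16 and 1.17 at 60 min. It rose by 1.01 ± 0.18 and by 1.09 ± 0.14 (SD, n = 3 each, adjusted p = 0.0044 and 0.0023). *MPC54*, the outer plaque partner of *SPO21*, rose by 0.86 ± 0.09 and by 1.43 ± 0.57 (adjusted p = 0.022 and 0.0013), and *MAM1*, a subunit of monopolin, by 1.00 ± 0.41 and by 1.46 ± 0.67 (adjusted p = 0.0212 and 0.0026). *SPO71* and *DON1*, of the prospore membrane, rose at 60 min by 1.03 ± 0.05 and by 0.95 ± 0.21 (adjusted p = 0.0043 and 0.0072). *SPO12*, which also acts in the exit from mitosis, fell at 30 min (-1.11 ± 0.06, SD, n = 3, adjusted p = 0.0063).

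The genes that feed into *IME1* and the repressors of meiotic genes gave 16 of 18 measured, of which 2 rose and 3 fell at 30 min and 1 rose and 6 fell at 60 min, with medians of -0.21 and -0.46. At 30 min these are 12.5% that rose and 18.8% that fell, near the 10.7% and 15.9% of all features, and at 60 min 6.25% rose and 37.5% fell, beside 15.6% and 18.2% of all features. *RME1* (YGR044C), the repressor of *IME1* in cells of a single mating type, had ratios of -0.68, -0.09 and -0.03 at 30 min and -1.03, -1.10 and -0.75 at 60 min. It fell at 60 min (-0.96 ± 0.18, SD, n = 3, adjusted p = 0.0070), with -0.27 ± 0.36 at 30 min (adjusted p = 0.365). *YHP1*, a repressor at the *IME1* promoter, and *RPD3* fell at 60 min (-1.38 ± 0.54 and -0.88 ± 0.33, adjusted p = 0.0042 and 0.0097), and *SIN3* fell at both times (-0.76 ± 0.31 and -0.73 ± 0.31, adjusted p = 0.0266 and 0.0262). *HST1* fell at 60 min (-0.64, adjusted p = 0.0318). The other repressors and their partners did not pass at either time. Their means at 30 and 60 min were -0.60 and -0.54 (*UME6*), -0.47 and 0.03 (*SUM1*), 0.03 and -0.37 (*SOK2*), 0.31 and 0.23 (*UME1*), and 0.26 and 0.51 (*RFM1*). *MCK1*, a kinase that promotes *IME1* expression, fell at both times (-1.16 ± 0.52 and -1.47 ± 0.22, adjusted p = 0.0055 and 0.0010). *RIM4*, an RNA-binding regulator of meiosis, rose by 0.95 ± 0.15 and 0.58 ± 0.04 (adjusted p = 0.0055 and 0.0391). *IME4*, an mRNA methyltransferase gene needed for meiosis, fell at 30 min only (-0.79 ± 0.21, adjusted p = 0.0349 by limma). The stress activator gene *MSN4* rose at 30 min only (0.85 ± 0.44, adjusted p = 0.0372 by limma). Size percentiles of the 6 genes that fell at 60 min were 95.1 (*MCK1*), 89.8 (*RPD3*), 85.4 (*HST1*), 79.0 (*RME1*), 43.3 (*SIN3*) and 24.5 (*YHP1*). The median for the 16 measured genes was 63.4. Of the 1204 features with the largest sizes, 570 fell at 60 min, with a median log2 ratio of -0.62. The part of size in the falls of this list was not tested.

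The strain is *MATa*, and the genes specific to either mating type were listed too. Of 6 *a*-specific genes measured out of 7 listed, 3 fell at 30 min and 5 at 60 min (15.9% and 18.2% of all features fell). *STE2*, the receptor for alpha-factor, fell to -3.14 ± 0.77 and -4.30 ± 0.32 at 30 and 60 min, and *STE6*, the exporter of a-factor, to -2.69 ± 0.60 and -3.14 ± 0.23 (SD, n = 3 each). *ASG7* lay the other way and did not pass, with means of 0.39 ± 0.30 and 0.52 ± 0.68 (SD, n = 3 each, adjusted p = 0.289 and 0.15 by limma). The percentiles of the whole-number size of *STE2*, *STE6* and *ASG7* were 99.3, 100 and 6.46, and the part of that size in their ratios was not tested. Of 3 alpha-specific genes measured out of 4 listed, 0 rose at 30 min and 1 at 60 min (10.7% and 15.6% of all features rose). *STE3* (YKL178C), the receptor for a-factor, had ratios of 1.55, 0.86 and 0.47 at 30 min and 2.69, 1.54 and 0.66 at 60 min. It was above 0 in all 6 arrays and rose at 60 min by 1.63 ± 1.02 (SD, n = 3, adjusted p = 0.0053), with 0.96 ± 0.55 at 30 min (adjusted p = 0.0617). *SAG1* and *MF(ALPHA)2*, for alpha-agglutinin and alpha-factor, did not pass, with means of 0.07 and 0.70 at 30 min and of -0.52 and 0.22 at 60 min. The part of these genes in the values of the 49 meiosis and sporulation genes was not tested.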

How the data were processed

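The deposited table held 12 columns, 1 for each scan of 6 arrays, of which 0 belonged to no sample in the labels. The 2 scans of an array differed in 0 values and were counted once. Per the labels, the authors divided Cy5 by Cy3 and normalized the ratio with negative control spots. The deposited log2 ratios do not name their base, which was settled from exact gaps between repeated values. Of 6912 probes, 6162 had a value, 716 of these had no symbol, and 78 groups with identical values (203 probes) were counted once. In 18 features distinct probes of the same gene, 36 in all, were averaged, which left 6019 features. A minimum of 2 values at each time removed none. Positions are left out because the genome build of the array is not given in the sources used here.

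In limma 3.58.1 (R 4.3.3) a mean for each time was fitted in 1 model with empirical Bayes (4 residual and 6.76 prior degrees of freedom), and p-values were adjusted over all features at 0.05. The fit was tested on simulated data. The number of arrays limits the precision.

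The genes and lists were chosen with earlier results of these data known. Values in every array are given for the regulators, for genes that passed at either time and for genes over 2-fold in at least 2 experiments, and in the other lists up to 6 genes with the lowest adjusted p are named. The remaining repressors and their partners are named besides. *SPO16*, *SPO22*, *SPO77*, *MEI5* and *HOP2* were singled out after their values were seen.

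Alternatives were median centring, scaling of the arrays, print-block centring, other filters, each time alone, array weights, a replicate block, fold rules, each array left out, and removal of the trend with the size of the whole numbers (lowess, span 0.3), the last added after the data were seen.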

Additional observations from a re-analysis of the deposited data

How the results depend on the processing

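At 30 min 14 of the 49 genes rose. The count was 22 with arrays scaled to the same spread, 28 with each time fitted alone, 32 with array weights, 3 without experiment 3 of both times, 8 with the trend removed (chosen after seeing the data), 3 with over 2-fold in at least 2 experiments and 2 with over 2-fold in all 3. At 60 min 22 rose, and 13 did with array weights, 11 with over 2-fold in at least 2 experiments and 1 with over 2-fold in all 3. Without a single array the count lay between 2 and 18 at 30 min and between 12 and 21 at 60 min. At 30 min 1 gene fell with each time fitted alone, with array weights, with the replicate block and with the trend removed, and 0 did otherwise. With the experiment number as a replicate block 15 rose at 30 min and 23 at 60 min. The numbers were not taken as pairs because no source says that they mark a shared culture or day. The deviations of same-numbered arrays had correlations of -0.04, 0.12 and 0.35 in experiments 1, 2 and 3, which do not settle whether they were paired. The difference between the times passed for 0 of the 49 genes in every fit.

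The median of the 5 regulators at 30 min (0.07) was -0.0072 with array weights, -0.24 when experiment 3 was left out of 30 min alone or of both times, and -0.16 with the trend removed, and lay between -0.24 and 0.17 without a single array. At 60 min (0.29) it was -0.20 without experiment 1 of that time, the lowest without a single array (highest 0.29), and 0.020 with the trend removed. The median of recombination and synapsis genes at 30 min (0.56) was 0.77 with scaled arrays and 0.26 with the trend removed, and that of spore membrane and wall genes (0.56) was 0.79 and 0.33. At 60 min that of recombination and synapsis genes (0.43) lay between 0.26 and 0.62 without a single array and was 0.25 with the trend removed. The cause was not tested. No background or intensity values were used, so signal over background is not known here.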
